A study of Mus musculus with 4 samples.

Results

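The genes described here are the antiviral genes that type I interferon switches on, 38 mouse genes chosen by symbol from a list of names. The list was chosen with earlier results of these data known. Of the 38, 37 were found among the 31053 genes of the deposited tables, and Mx2 was not analysed here. They fall into 9 branches by what their products do: 5 Ifit genes, 6 Oas genes, 2 Mx genes, 3 Phf11 genes, 3 genes of the ISG15 conjugation system, 3 transcription factors, 4 nucleic acid sensors, 2 membrane proteins and 10 other effectors. They were measured by droplet single-cell RNA sequencing of tumour-infiltrating cells from C57BL/6 mice with orthotopic B6KPC3 tumours in the pancreas, a mouse pancreatic cancer line grown in the organ of origin. Tumours were 7 days old when treatment began. One group received AT38, a compound known here only by that code name, at 30 mg/kg per day in 1% carboxymethyl cellulose in water, by double intraperitoneal injection each day for 7 days, and the other received the vehicle alone. Each group has 2 libraries, and each library is a pool of 4 mice sorted to enrich CD45, so n = 2 per group counts pools and differences between mice within a pool cannot be seen. The study asked what interrupting nitrosative stress does to immune cells in these tumours.

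Type I interferons are secreted by cells that sense nucleic acids in the wrong place, and they bind a shared receptor, IFNAR1 with IFNAR2, on nearly every nucleated cell. The kinases JAK1 and TYK2 then activate transcription factors, STAT2 and IRF9 among them, that bind a DNA element called the interferon-stimulated response element (ISRE) near the start of target genes. The targets block viruses at entry, replication and release, and several of them (Irf7, Stat2, Irf9 and the sensors) feed back to raise the response, whereas Usp18 restrains it. In tumours the same genes are read as a sign that myeloid cells have met interferon.

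The 4 libraries held 24294215 to 34386076 UMIs, and 2903 to 4683 cells per library were kept, with a median of 2992 to 4148 UMIs per cell. Among 14172 kept cells, clusters named from marker genes gave 4539 neutrophils, 2788 T cells, 1935 mononuclear phagocytes (monocytes and macrophages), 1596 dendritic cells, 1238 B cells and 566 NK cells, with smaller groups of ILC2, mast cells or basophils, epithelial cells and fibroblasts, while 1078 cells stayed unnamed. The names are rebuilt from markers and may differ from the names the study used. In 14 cases a kept barcode occurred in more than one library, and such cells were left in. Acinar transcripts stood apart by library, with the summed level of 6 acinar markers in neutrophils at 4614 and 45.0 CPM in the vehicle libraries and 1937 and 4535 CPM in the AT38 libraries. Their part in the results below was not tested. All levels are CPM, UMIs of a gene per 1000000 UMIs of that cell class in that library, and since each molecule is counted once at its 3′ end they are not divided by gene length.

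RefSeq promoter windows of 300 bases, from 250 before to 50 after the start in build GRCm38.p6, were matched to 29 of the members by symbol. The ISRE core was searched as GAAA, any 2 bases and GAAA, or on the other strand as TTTC, any 2 bases and TTTC, with overlapping matches counted. At least one window held it for 17 of these 29 genes (58.6%), against 3.99% of 27025 genes with a window. The interferon gamma element GAS, searched as TTC, any 3 bases and GAA, which reads the same on both strands, and independently of the ISRE core, so that the letters may overlap, was in the windows of 6 of the 29 (20.7%) against 9.55% of all genes. The 250 bases before the start are shown for 1 or 2 genes of the main branches that differ in how the core is placed, and for Xaf1 as a gene with none. Each is written 5′ to 3′ on the gene's own strand, and capitals mark the core.
Ifit3, chr19:34583279-34583528, plus strand, cores beginning 156 and 122 bases before the start: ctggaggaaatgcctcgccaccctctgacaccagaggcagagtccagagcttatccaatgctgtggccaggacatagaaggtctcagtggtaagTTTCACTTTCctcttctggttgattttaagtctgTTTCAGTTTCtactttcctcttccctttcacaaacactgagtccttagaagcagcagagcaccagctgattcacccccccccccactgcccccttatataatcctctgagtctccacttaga
Ifit1, chr19:34640639-34640888, plus strand, cores beginning 104 and 85 bases before the start: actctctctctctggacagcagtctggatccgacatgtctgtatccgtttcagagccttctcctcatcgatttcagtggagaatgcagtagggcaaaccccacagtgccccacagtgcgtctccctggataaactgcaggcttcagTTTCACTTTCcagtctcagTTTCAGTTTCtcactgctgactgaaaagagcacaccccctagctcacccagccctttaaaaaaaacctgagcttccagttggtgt
Oas1a, chr5:120907526-120907775, minus strand, overlapping cores beginning 20 and 14 bases before the start: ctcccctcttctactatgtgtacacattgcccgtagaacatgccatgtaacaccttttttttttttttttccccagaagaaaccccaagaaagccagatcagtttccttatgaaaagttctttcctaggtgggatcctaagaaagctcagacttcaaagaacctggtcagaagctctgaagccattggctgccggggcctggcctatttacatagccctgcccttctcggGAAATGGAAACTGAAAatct
Phf11b, chr14:59341331-59341580, minus strand, core beginning 50 bases before the start: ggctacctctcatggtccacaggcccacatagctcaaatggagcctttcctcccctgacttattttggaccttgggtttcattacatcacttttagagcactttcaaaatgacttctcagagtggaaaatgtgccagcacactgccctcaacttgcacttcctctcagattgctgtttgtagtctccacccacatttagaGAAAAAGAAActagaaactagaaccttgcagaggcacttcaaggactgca
Isg15, chr4:156200819-156201068, minus strand, overlapping cores beginning 78, 72 and 66 bases before the start: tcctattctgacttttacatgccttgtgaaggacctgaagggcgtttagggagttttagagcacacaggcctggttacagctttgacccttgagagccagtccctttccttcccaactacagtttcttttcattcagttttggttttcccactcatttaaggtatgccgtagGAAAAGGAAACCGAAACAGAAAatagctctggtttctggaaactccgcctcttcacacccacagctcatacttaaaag
Bst2, chr8:71537473-71537722, minus strand, overlapping cores beginning 130 and 124 bases before the start: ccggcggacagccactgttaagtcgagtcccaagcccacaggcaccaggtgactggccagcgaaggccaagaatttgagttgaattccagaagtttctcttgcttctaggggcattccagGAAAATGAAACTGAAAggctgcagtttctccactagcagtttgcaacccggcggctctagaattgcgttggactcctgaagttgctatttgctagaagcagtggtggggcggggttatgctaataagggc
Xaf1, chr11:72301379-72301628, plus strand, no core: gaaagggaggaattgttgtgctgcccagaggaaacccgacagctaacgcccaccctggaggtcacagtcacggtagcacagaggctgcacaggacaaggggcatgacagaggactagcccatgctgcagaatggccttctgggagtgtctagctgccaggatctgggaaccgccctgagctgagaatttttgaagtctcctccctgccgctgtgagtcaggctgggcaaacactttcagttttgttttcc
The cores stand singly in Phf11b, as a spaced pair in Ifit1 and Ifit3, and as overlapping runs in Isg15, Bst2 and Oas1a. A match describes the letters and does not show that a factor binds.

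Across the 9 classes placed in order, the members together were highest in myeloid cells. Their summed level was 3260 and 3159 CPM in vehicle mononuclear phagocytes, 2934 and 2793 in vehicle neutrophils and 2358 and 2270 in vehicle dendritic cells. T cells followed at 1413 and 1279, then B cells at 843 and 762 and NK cells at 660 and 724. The score over the 37 genes, the mean of log2(CPM + 1), ran from 4.74 to 5.53 over the 4 phagocyte libraries and from 4.77 to 5.24 in neutrophils, so these 2 classes were not separated, whereas dendritic cells (4.25 to 4.66) and T cells (3.74 to 4.06) each lay below the class before them in every library. NK cells (2.86 to 3.59), ILC2 (2.51 to 3.64), B cells (2.83 to 3.16), mast cells or basophils (2.72 to 3.43) and epithelial cells (2.40 to 3.11) overlapped one another. The 38 fibroblasts, 6 to 15 per library, had summed levels of 3853 to 8687 CPM and were too few to place in this order. Cell classes were built from the same counts, so these orders are a description. The sums leaned on abundant members. Averaged over the 4 libraries, Ifitm3 and Ifi27l2a gave 1188 and 1025 CPM of 3858 in phagocytes. They gave 1039 and 374 of 2552 in dendritic cells, and 586 and 447 of 3324 in neutrophils. Ifi27l2a gave 649 of 1470 in T cells and 371 of 940 in B cells, but 42.4 of 706 in NK cells. Sums by cluster and UMIs per cell, given below, likewise weigh the most abundant members most.

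**Figure D1:**
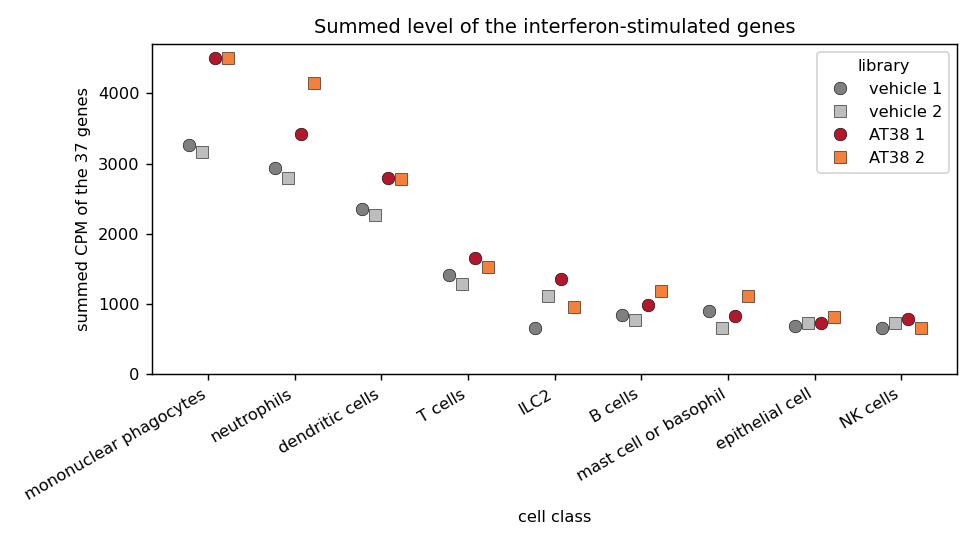
Summed CPM of the 37 measured interferon-stimulated genes (linear vertical axis from 0) in each cell class (horizontal axis), with 1 point per library, grey for vehicle and red or orange for AT38. Both AT38 points stand above both vehicle points in mononuclear phagocytes (4500 and 4513 against 3260 and 3159), neutrophils, dendritic cells, T cells, B cells and epithelial cells, and the points of the groups overlap in ILC2, mast cells or basophils and NK cells.

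The genes did not share 1 order of cell types. The highest mean level was in phagocytes for 13 members, in neutrophils for 12, in dendritic cells for 6, in NK cells and in ILC2 for 2 each, and in T cells and B cells for 1 each. The 2 members highest in ILC2, Herc6 (16.2 to 67.0 CPM) and Parp14 (54.5 to 134), rest on 14 to 21 cells per library. Ifi44, highest in NK cells, ran from 0 to 13.4 CPM there on 22 UMIs. For 11 members every library of the top class lay above every library of the other classes: 6 of these (Ifit3, Oasl2, Isg15, Rsad2, Cmpk2 and Isg20) were neutrophil genes, 2 (Oas1a and Ifi27l2a) phagocyte genes, 2 (Phf11a and Phf11b) dendritic cell genes, and Ifit1bl1 was highest in T cells. Oasl2, an OAS-like protein with a ubiquitin-like tail, averaged 350 CPM in neutrophils (317 to 407) and 69.7 in phagocytes (56.4 to 89.5). Rsad2, the radical enzyme viperin, averaged 299 CPM in neutrophils (223 to 355) and 105 in phagocytes (64.7 to 142). Phf11b, a PHD finger protein, was at 87.8 CPM in dendritic cells (72.7 to 108) and 54.8 in phagocytes (39.2 to 70.6), with 2.04 in neutrophils (1.83 to 2.20). Phf11b was thus near 0 in the class where Oasl2 and Rsad2 were highest. Irf9, a DNA-binding partner of STAT2, was highest in B cells at 76.1 CPM (73.5 to 80.6), overlapping none of the phagocyte libraries (51.9 to 63.4) but close to T cells (51.4 to 72.6).

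AT38 tumours held mononuclear phagocytes with more of these transcripts. All 35 members that could be tested were above 0 (50.4% of all genes), both AT38 libraries lay above both vehicle libraries for 35 of 35 (20.9% of all 10762 genes tested did so), and the median log2 fold change was 0.69, against 0.0026 over all genes. P-values here measure the spread between pools of mice. At an adjusted p under 0.05 (edgeR, adjusted over all genes tested), 14 members rose and 0 fell (0.781% of all genes rose and 0.678% fell). Before adjustment 31 of the 35 were below 0.05, against 5.44% of all genes on the higher side. The score went from 4.77 ± 0.039 to 5.49 ± 0.049 (SD, n = 2 each) and the summed level from 3209 ± 71.2 to 4506 ± 9.07 CPM. Ifit3b and Ifit1bl1, with 15 and 41 UMIs in this class, were below the filter on low counts.

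The Ifit branch, tetratricopeptide proteins that grip foreign RNA, had the largest median of the branches, at a log2 fold change of 1.63 over its 3 tested genes. Ifit2 was at 9.61 and 12.4 CPM with vehicle and 27.9 and 46.8 with AT38. Ifit3 was at 3.29 and 4.60 CPM against 12.1 and 13.5. The groups were apart for both, and the AT38 libraries differed more among themselves for Ifit2 than for Ifit3. The log2 fold changes were 1.70 ± 0.29 for Ifit2 (SE, adjusted p = 0.0361, edgeR) and 1.63 ± 0.29 for Ifit3 (adjusted p = 0.0148, edgeR). Ifit1, which binds RNA with an unmethylated cap, was at 24.3 and 13.8 CPM against 31.4 and 45.8. Its groups did not overlap, but the spread within each was wide and it did not pass (1.04 ± 0.32, adjusted p = 0.321, edgeR).

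Several of the Oas genes make the second messenger that activates RNase L. The changes of the Oas branch here were smaller. Oas3, the largest of these proteins, rose from 19.99 and 15.7 CPM to 32.6 and 29.0 (log2 fold change 0.81 ± 0.18, adjusted p = 0.0481, edgeR). The other 5 genes had log2 fold changes between 0.54 and 0.66, and none of them passed. Oasl2 came nearest, at 56.4 and 57.3 CPM with vehicle and 89.5 and 75.5 with AT38 (0.54 ± 0.12, adjusted p = 0.0514). Oas1a was at 28.3 and 22.2 CPM against 38.03 and 38.6 (adjusted p = 0.116), and Oasl1 at 47.3 and 36.2 against 51.7 and 77.8 (adjusted p = 0.440). The branch as a whole had a median of 0.62, near that of all members.

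Mx1, of the dynamin-like GTPase family, was at 8.10 and 9.52 CPM with vehicle and 17.7 and 27.04 with AT38. The groups were apart and the change of 1.29 ± 0.25 passed (adjusted p = 0.0295, edgeR). In the Phf11 branch, Phf11b went from 44.3 and 39.2 CPM to 70.6 and 65.0 (0.71 ± 0.13, adjusted p = 0.0171). Phf11d went from 10.1 and 9.52 CPM to 22.0 and 17.1 (1.01 ± 0.21, adjusted p = 0.0347). Phf11a had nearly the same fold change, 0.97 ± 0.29, on 5.57 and 5.24 CPM against 9.17 and 12.5, and did not pass (adjusted p = 0.182).

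Among the transcription factors, Irf7, the factor that amplifies interferon production, rose from 51.4 and 45.5 CPM to 89.3 and 87.7. The libraries within a group were close together, and its adjusted p of 0.00379 was the smallest among the members (log2 fold change 0.87 ± 0.12, edgeR). Stat2 rose from 32.6 and 33.0 CPM to 51.3 and 49.5 (0.61 ± 0.13, adjusted p = 0.0448). Irf9 was at 51.9 and 52.8 CPM against 63.4 and 61.0 and did not pass (0.24 ± 0.12, adjusted p = 0.535). Of the sensors, Zbp1, which senses left-handed nucleic acid and can trigger necroptosis, rose from 67.3 and 72.2 CPM to 103 and 115 (0.63 ± 0.12, adjusted p = 0.0233). The RNA helicases Dhx58 (LGP2; 0.76, adjusted p = 0.0804), Ifih1 (MDA5; 0.78, adjusted p = 0.400) and Ddx58 (RIG-I; 0.30, adjusted p = 0.503) did not pass.

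In the ISG15 system, a ubiquitin-like modifier with its ligase and protease, no gene passed. Isg15 itself was at 135 and 94.4 CPM with vehicle and 185 and 254 with AT38, apart but widely spread (0.93 ± 0.25, adjusted p = 0.257). Usp18, the protease that removes ISG15 and dampens the receptor, was at 8.10 and 8.09 CPM against 16.6 and 14.2 (0.93 ± 0.22, adjusted p = 0.0661). Herc6, the mouse ISG15 ligase, had 0.54 ± 0.17 (adjusted p = 0.200). Bst2 (tetherin), which holds budding virions at the cell surface, rose from 173 and 180 CPM to 290 and 279. Its groups were far apart for their spread (0.69 ± 0.10, adjusted p = 0.00644, edgeR). Ifitm3, an endosomal entry block, was at 1122 and 1082 CPM against 1304 and 1246 (0.21 ± 0.082, adjusted p = 0.397), a small and uncalled difference.

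Of the 10 other effectors, 4 rose. Ifi44 was at 4.05 and 2.38 CPM with vehicle and 14.2 and 8.24 with AT38, the largest log2 fold change of the members (1.90 ± 0.36, adjusted p = 0.0237, edgeR) on 129 UMIs in all. Rtp4, a chaperone-like protein, rose from 26.3 and 29.7 CPM to 50.9 and 49.5 (0.83 ± 0.14, adjusted p = 0.0120). Xaf1, a pro-apoptotic partner of XIAP, rose from 24.8 and 24.4 CPM to 40.4 and 39.9 (0.70 ± 0.15, adjusted p = 0.0361). Library agreement was close for both. Ifi27l2a, a small mitochondrial membrane protein, rose from 825 and 861 CPM to 1245 and 1168 (0.51 ± 0.085, adjusted p = 0.0105). Rsad2 was at 98.9 and 64.7 CPM against 112 and 142 and did not pass (0.64, adjusted p = 0.443). Cmpk2, its neighbour on chromosome 12, had 0.99 (adjusted p = 0.0587), and Parp14, Isg20, Trim30a and Ifi35 had 0.50, 0.55, 0.33 and 0.10, with adjusted p between 0.0680 and 0.905.

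**Figure D2:**
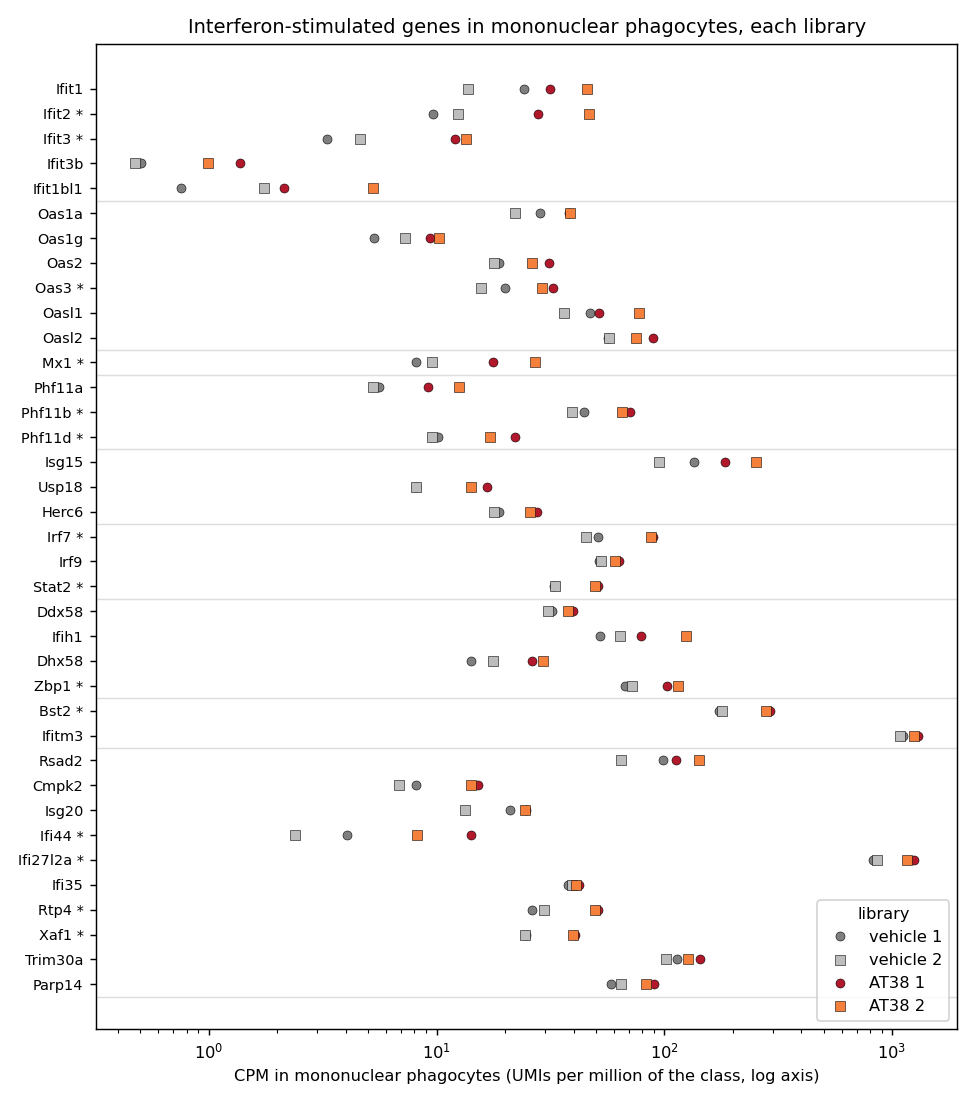
CPM of each of the 37 measured genes in mononuclear phagocytes (log horizontal axis) by gene (vertical axis, grouped by branch), with 1 point per library, grey for vehicle and red or orange for AT38, and an asterisk for genes at adjusted p under 0.05. The AT38 points lie to the right of the vehicle points throughout, widest for Ifit2, Ifit3, Ifi44 and Mx1 and narrowest for Ifi35 and Ifitm3.

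Under each alternative run on the whole class every tested member was above 0, but the number past the threshold varied. Without vehicle library 1 only Irf7 passed (17 of all 11359 genes rose), and without vehicle library 2 none did by edgeR (30 of 10974), with 25 of 36 still below an unadjusted p of 0.05 and a median of 0.67. Without AT38 library 1 the count was 16 (236 of all 10882 genes rose) and without AT38 library 2 it was 19 (150 of 11359). DESeq2 called 5 (62 of 17405).

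**Figure D3:**
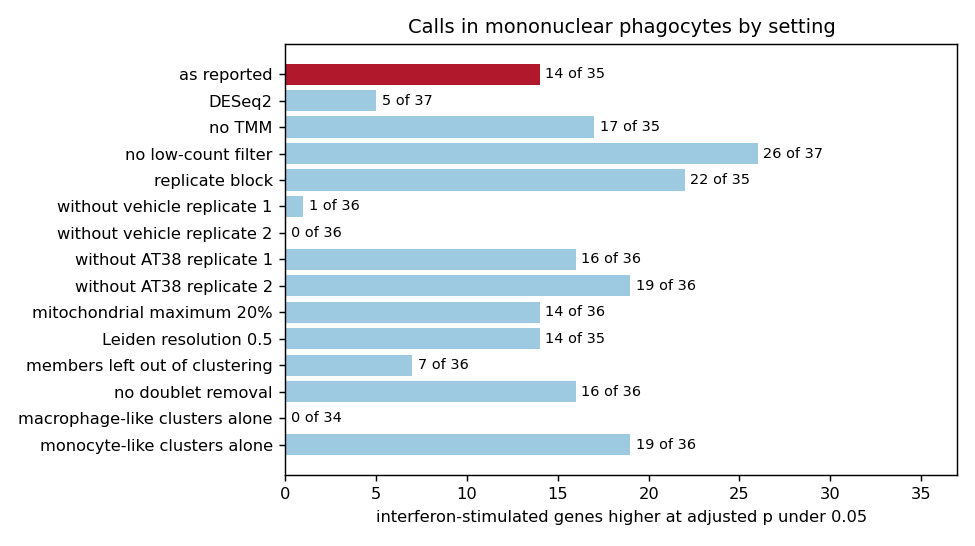
Number of interferon-stimulated genes higher with AT38 in mononuclear phagocytes at adjusted p under 0.05 (horizontal axis from 0), for the reported setting and each alternative (vertical axis), with the number called and tested written beside each bar. Counts run from 0 of 36 without vehicle library 2 to 26 of 37 without the low-count filter, and 0 of 34 with macrophage-like clusters alone.

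Markers of macrophages were also higher in this class with AT38, and their part in the result was not tested. The summed level of 9 macrophage markers was 6621 and 7581 CPM with vehicle and 10015 and 10687 with AT38, and 8 of the 9 had positive log2 fold changes. The 7 monocyte markers summed to 2214 and 2276 against 2410 and 2677, the 9 dendritic cell markers to 225 and 163 against 264 and 284, and the 6 markers of plasmacytoid dendritic cells to 14.2 and 14.4 against 16.6 and 13.8. The Vcan-led cluster with monocyte markers made up 64.6% and 65.6% of vehicle phagocytes and 52.4% and 53.5% of AT38 phagocytes. The members were read within each cluster for that reason. In that monocyte-like cluster alone their summed level was 3466 and 3378 CPM against 5303 and 5731, and 19 of 36 tested members rose and 0 fell (0.884% of all genes rose and 1.06% fell), with a median of 0.83. Irf7 was among the members called there, at 57.0 and 50.9 CPM against 112 and 111. Isg15 was at 143 and 103 CPM against 219 and 297 and was not called.

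The macrophage-like clusters did not move as one. In the Folr2 and Lyve1 cluster the summed level was 2957 and 3905 CPM with vehicle and 4778 and 4661 with AT38, and Ifit2 was at 9.46 and 6.73 CPM against 54.6 and 146. In the cluster led by Mmp13, Mmp12 and C1q genes it was 2335 and 1576 against 2050 and 2000, and Ifit2 was at 9.40 and 18.3 against 9.04 and 7.88. The groups were apart in the first and overlapped in the second, whose share of phagocytes was 12.3% and 13.2% with vehicle and 18.6% and 28.9% with AT38. The Folr2 and Lyve1 cluster held 90 and 145 cells with vehicle and 154 and 58 with AT38. In AT38 library 2 the 5 richest of all phagocytes held 64.1% of the Ifit2 UMIs. Fitted together, the macrophage-like clusters gave 31 of 34 members above 0, a median of 0.46 and no member past the threshold by edgeR (0.112% of all genes rose). Before adjustment 18 were below 0.05, as were 605 of all 8930 genes. A test of the difference between these clusters was not run.

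**Figure D4:**
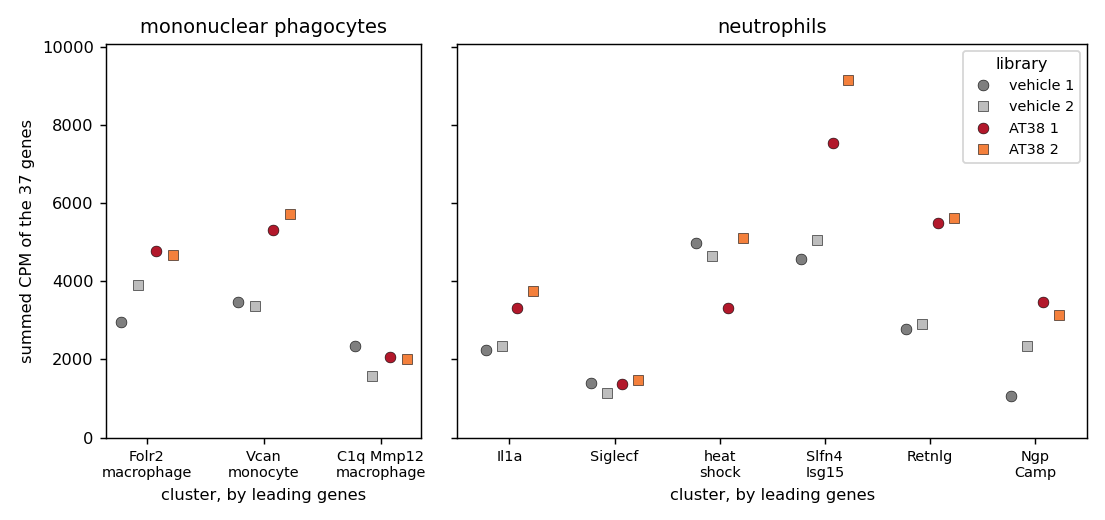
Summed CPM of the 37 genes (linear vertical axis from 0) in each cluster of mononuclear phagocytes (left) and neutrophils (right), named by leading genes, with 1 point per library, grey for vehicle and red or orange for AT38. AT38 points stand above vehicle points in the Folr2 and Vcan phagocyte clusters and in the Il1a, Slfn4 Isg15, Retnlg and Ngp Camp neutrophil clusters, and the groups overlap in the C1q Mmp12, Siglecf and heat shock clusters.

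Neutrophils had the highest levels of Isg15, Rsad2 and Oasl2 in these tumours, and 3 members passed there. Of 30 tested, 3 rose and 0 fell (0.919% of all 8484 genes rose and 2.58% fell). In all 21 were above 0 with a median of 0.25 (51.1% of all genes were above 0, with a median of 0.0084). Before adjustment 9 were below 0.05 (7.19% of all genes were, on the higher side). Both AT38 libraries lay above both vehicle libraries for 14 (36.2% of all genes). Ifi27l2a went from 276 and 306 CPM to 553 and 651 (0.93 ± 0.10, adjusted p = 1.93e-04, edgeR). Isg15 went from 355 and 309 CPM to 477 and 566 (0.53 ± 0.11, adjusted p = 0.0134). Zbp1 went from 58.8 and 54.9 CPM to 92.1 and 99.0 (0.63 ± 0.12, adjusted p = 0.00834). All 3 had groups that were apart. Oasl2 was at 342 and 335 CPM against 317 and 407 and Rsad2 at 355 and 270 against 223 and 348, and neither passed. Without vehicle library 2 only Ifi27l2a rose (56 of all 8916 genes did), and without AT38 library 1 the count was 7 (133 of 9024). Without AT38 library 2, Ifi27l2a and Zbp1 rose (87 of 9128) while Irf9 and Rsad2 fell (269 of 9128). The scaling matters in this class: without TMM factors the median of all genes moved to 0.13, 26 of the 30 members were above 0, 6 were called, and the split of all calls went from 78 higher and 219 lower to 281 higher and 150 lower.

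The neutrophil class held unlike clusters whose shares differed between the groups. A Siglecf-led cluster with the lowest summed level of the members among the larger neutrophil clusters (1407 and 1131 CPM with vehicle, 1374 and 1465 with AT38) made up 15.8% and 18.5% of vehicle neutrophils and 33.0% and 29.6% of AT38 neutrophils. In the Retnlg-led cluster the members summed to 2790 and 2909 CPM against 5496 and 5607, in the Il1a-led cluster to 2253 and 2338 against 3327 and 3741, and in the cluster led by Slfn4 and Isg15 to 4571 and 5054 against 7549 and 9154. The last was clustered on some of these genes, so its high level is no finding. The heat shock cluster (4982 and 4656 against 3315 and 5096) showed no separation. With the Siglecf cluster left out, an alternative chosen after seeing the data, 9 of 30 members rose and 0 fell (1.11% of all genes rose and 1.28% fell), 28 were above 0 and the median was 0.44. With that cluster alone, 0 of 22 passed by edgeR (0.0888% of all genes rose) and 14 were above 0. Before adjustment 2 were below 0.05, as were 420 of all 6760 genes.

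The members called once the Siglecf cluster was left out were Ifi27l2a, Ifitm3, Irf7, Isg15, Isg20, Oas1a, Oasl1, Rtp4 and Zbp1. Isg15 was then at 422 and 365 CPM with vehicle and 721 and 837 with AT38 (0.95 ± 0.10, adjusted p = 6.80e-07, edgeR). Ifi27l2a was at 319 and 380 CPM against 868 and 945 (1.33 ± 0.11, adjusted p = 6.48e-10), and Ifitm3 at 571 and 609 against 881 and 1036 (0.66 ± 0.10, adjusted p = 1.08e-04). The groups were apart for each. Irf7 was at 65.6 and 55.0 CPM against 99.7 and 118 (0.82 ± 0.15, adjusted p = 0.00142). Ifit3 (1.23, adjusted p = 0.0881), Ifit2 (0.85, adjusted p = 0.119) and Rsad2 (0.18, adjusted p = 0.833) did not pass there. The sum of 9 neutrophil markers over the whole class was 74382 and 81072 CPM with vehicle and 66564 and 66793 with AT38, and its part in the result was not tested.

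Dendritic cells had positive changes for 34 of 36 tested members (50.2% of all genes) with a median of 0.42, and both AT38 libraries lay above both vehicle libraries for 22 (11.7% of all 11146 genes). None passed by edgeR (0% of all genes rose), and DESeq2 called 1, Isg15. Before adjustment 18 were below 0.05 (3.49% of all genes were, on the higher side). Isg15 was at 70.1 and 93.1 CPM with vehicle and 134 and 129 with AT38 (0.75 ± 0.14, adjusted p = 0.280). Irf7 was at 16.5 and 22.2 CPM against 35.4 and 33.1 (0.89 ± 0.17, adjusted p = 0.280). Phf11a, highest in these cells, was at 24.97 and 24.8 CPM against 40.7 and 39.0 (0.75 ± 0.13, adjusted p = 0.278). These groups were apart, in a class where edgeR called 0 genes higher and DESeq2 called 6. Without AT38 library 1, 6 members passed (Bst2, Irf7, Isg15, Oas1a, Phf11a and Phf11d), and calls over all genes went from 0 higher and 2 lower to 105 higher and 212 lower of 11499. Among the dendritic clusters, the AT38 libraries lay above the vehicle libraries in the Cd209a-led cluster (summed levels of 3902 and 3594 CPM against 5000 and 6539) and the Fscn1-led cluster (1452 and 1462 against 2009 and 1576). The groups overlapped in the Xcr1-led cluster (2191 and 1892 against 1924 and 2741) and the Plet1-led cluster (2298 and 2627 against 2901 and 2483). The Cd209a-led cluster, where the members were highest, made up 25.5% and 26.8% of vehicle and 21.7% and 17.9% of AT38 dendritic cells. In the whole class 9 neutrophil markers summed to 1520 and 1250 CPM with vehicle and 1040 and 996 with AT38 (1 of 9 positive). The 5 plasma cell markers summed to 223 and 257 against 146 and 157, and the 6 B cell markers to 51.5 and 41.0 against 17.4 and 10.9. Their part in the result was not tested.

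In lymphocytes no member passed by edgeR or DESeq2. B cells had 15 of 17 tested members above 0 (50.9% of all genes) and a median of 0.48, with 4 below 0.05 before adjustment (2.75% of all genes were, on the higher side, and 0.0488% passed). Both AT38 libraries lay above both vehicle libraries for 9 of the 17 (13.3% of all genes). Bst2 was at 66.8 and 51.4 CPM with vehicle and 110 and 104 with AT38 (0.93 ± 0.20, adjusted p = 0.156), and it passed without AT38 library 2 (33 of all 8830 genes rose) and, with Ifi27l2a and Zbp1, without vehicle library 1 (93 of 8514). Zbp1 was at 26.5 and 16.5 CPM against 46.4 and 38.8 (1.08 ± 0.30, adjusted p = 0.387). T cells had 24 of 31 above 0 (49.8% of all genes) and a median of 0.20, with 4 below 0.05 before adjustment (2.82% of all genes were, on the higher side, and 0.0195% passed). Both AT38 libraries lay above for 12 (14.3% of all genes), with Rtp4 at 7.42 and 8.22 CPM against 15.2 and 11.2 (0.75, adjusted p = 0.629). Rtp4 was also the 1 member called in CD4-like sub-clusters alone, an alternative chosen after seeing the data (0.0467% of all genes rose), and without vehicle library 1 Ifi27l2a passed in T cells (22 of all 10679 genes rose). NK cells had 7 of 16 above 0 (50.2% of all genes) and a median of -0.066, and both AT38 libraries lay above for 2 (16.1% of all genes). Below 0.05 before adjustment were 2 (2.86% of all genes were, on the higher side, and 0.0438% passed), Ddx58 and Bst2, the latter at 53.4 and 55.8 CPM against 77.6 and 94.8. ILC2, mast cells or basophils, epithelial cells and fibroblasts, with 6 to 70 cells per library, were not tested. Among them the score averaged 2.97 ± 0.20 with vehicle and 2.47 ± 0.092 with AT38 in epithelial cells (SD, n = 2), where the summed level was 701 ± 34.05 against 768 ± 53.6 CPM and so differed in the other direction. That class held 70 and 69 cells with vehicle and 39 and 35 with AT38, and the part of cell number in the score was not tested. The score averaged 2.79 ± 0.10 against 3.18 ± 0.36 in mast cells or basophils.

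**Figure D5:**
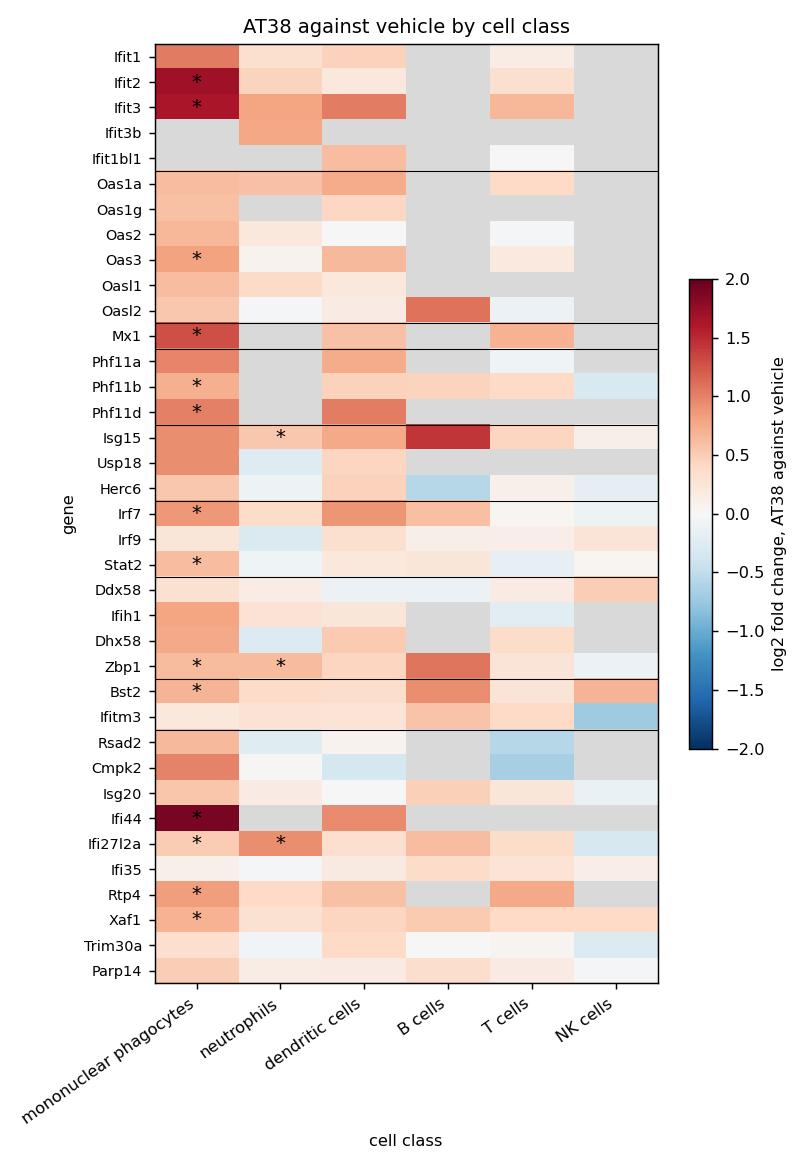
Fitted log2 fold change of AT38 against vehicle (colour, red higher and blue lower) for each gene (vertical axis, grouped by branch) in each of 6 tested cell classes (horizontal axis), with grey for genes below the low-count filter and an asterisk for adjusted p under 0.05. The 14 asterisks in mononuclear phagocytes spread over 8 branches, the 3 in neutrophils mark Isg15, Zbp1 and Ifi27l2a, and the other classes have none.

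Whether the response of phagocytes differed from that of another class was tested gene by gene within libraries. Against neutrophils, 2 of 36 members responded more in phagocytes (0.602% of all 10805 genes did): Rsad2 by 0.92 ± 0.15 on the log2 scale (adjusted p = 5.08e-04, edgeR) and Ifit2 by 1.24 ± 0.31 (adjusted p = 0.0499). In all 33 of 36 were above 0, with a median difference of 0.52, against -0.017 over all genes. Ifi27l2a leaned the other way (-0.42, adjusted p = 0.148), and it was called lower without TMM factors, without AT38 library 1 and at a clustering resolution of 0.5. Rsad2 was not called without vehicle library 2, Ifit2 was not called without vehicle library 1, by DESeq2 or with the members left out of clustering, and neither was called at that resolution. Against dendritic cells, B cells, T cells and NK cells no member passed by edgeR or DESeq2 (0.0344%, 0.0192%, 0.123% and 0.0393% of all genes were higher in phagocytes). Before adjustment 6, 3, 6 and 8 members were below 0.05, counting both directions. One of the 8, Mx1, responded less in phagocytes than in NK cells (-5.95, on 13 UMIs in NK cells). Against dendritic cells 29 of 36 members were above 0, with a median difference of 0.30, against -0.0019 over all genes. There 6 of 36 members were below 0.05 before adjustment, as were 867 of all 11635 genes. The fewer calls in those classes are therefore not shown to be a smaller response.

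The shift in phagocytes was also read per cell. With each cell thinned to 1000 UMIs, the members gave a mean of 3.38 and 3.32 UMIs per phagocyte with vehicle and 5.01 and 4.99 with AT38, the median went from 2 and 3 to 4 and 4, and the 90th percentile from 8 and 7 to 11 and 11. Between 28 and 46 phagocytes per library had too few UMIs and were left out, and without thinning the mean per 1000 UMIs was 3.27 and 3.33 against 4.77 and 5.04. In neutrophils the mean went from 3.28 and 2.97 to 4.01 and 4.51 and the 90th percentile from 8 and 7 to 11 and 12, while the median stayed at 2 in all 4 libraries. Dendritic cells had means of 2.81 and 2.30 against 2.73 and 2.89, which overlapped. Without thinning their means per 1000 UMIs were 2.49 and 2.33 against 2.83 and 2.84, and the groups were apart.

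For the low-abundance genes a few cells held much of the signal. Over all 1935 phagocytes, 5 cells held 25.4% of the 401 Ifit2 UMIs, 25.5% of the 145 Ifit3 UMIs and 29.5% of the 129 Ifi44 UMIs. Within a library the 5 richest cells held 63.2% and 37.2% of the Ifit2 UMIs with vehicle and 27.3% and 64.1% with AT38. Over all phagocytes the share was lower for Bst2 (3.64%), Zbp1 (3.32%), Xaf1 (5.17%) and Irf7 (7.91%). Within a library it was 5.74% to 15.2% for Bst2 and 13.2% to 24.1% for Irf7. The changes of Bst2 and Irf7 thus rested on more UMIs, with 4149 and 1214 in all, than those of the Ifit genes and Ifi44.

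Upstream of the members, Ifnb1, which encodes interferon beta, was at 9.36 and 9.20 CPM in vehicle phagocytes and 26.1 and 42.5 in AT38 phagocytes (37, 58, 134 and 129 UMIs). It rose by 1.85 ± 0.27 on the log2 scale (adjusted p = 0.00962, edgeR), and 5 cells held 31.8% of its 358 UMIs. Within a library the 5 richest cells held 62.2% and 55.2% of its UMIs with vehicle and 67.9% and 51.9% with AT38. The groups were apart in the monocyte-like cluster (7.67 and 9.40 CPM against 26.7 and 33.5) and overlapped in the Folr2 cluster (26.0 and 18.8 against 25.3 and 180) and the C1q and Mmp12 cluster (5.64 and 1.02 against 25.3 and 5.63). It was the 1 of 2 tested interferon ligands to pass, the other being Ifng (33.4 and 29.5 CPM against 30.2 and 17.5). No receptor of 5 passed by edgeR or DESeq2, and 0 were below 0.05 before adjustment, with Ifnar1 at 101 and 91.2 CPM against 106 and 91.7. Of 12 signalling genes 0 passed by either tool and 2 were below 0.05 before adjustment. Of 12 genes of interferon induction 0 passed and 3 were below 0.05 (1105 of all 10762 genes were). Among targets that lean to interferon gamma, 4 of 17 rose, and all 17 were above 0 with a median of 0.37. These 4 were the chemokine Cxcl9 (1.06, adjusted p = 0.0322) and the GTPases Gbp2b (1.78, adjusted p = 0.00238), Gbp4 (0.76, adjusted p = 0.0172) and Iigp1 (0.96, adjusted p = 0.00723).

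In neutrophils, 2 of 14 tested targets that lean to interferon gamma rose, Gbp4 (0.90, adjusted p = 0.00860, edgeR) and Psmb8 (0.44, adjusted p = 0.0443). Of 8 tested induction genes 1 fell, Tlr13 (-0.76, adjusted p = 0.00267, edgeR). Signalling genes that passed included Socs3, which was lower (-0.41, adjusted p = 0.0224, edgeR). Over all genes in neutrophils 0.919% rose and 2.58% fell. No interferon ligand reached the count filter there. In dendritic cells, B cells, T cells and NK cells no gene of the lists passed by edgeR or DESeq2. Before adjustment 6 of 47, 5 of 39, 4 of 42 and 3 of 37 tested genes were below 0.05. Over all genes 730 of 11146, 456 of 8195, 632 of 10267 and 409 of 6844 were. Whether Ifnb1 and the members moved in the same phagocytes was not tested.

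Members with and without an ISRE core in the window had similar medians in phagocytes: the 15 tested members with it had a median log2 fold change of 0.69 and 5 called, and the 12 without it had 0.66 and 5 called. In neutrophils the medians were 0.29 over 13 members and 0.090 over 10, and in dendritic cells 0.44 over 16 and 0.27 over 12. The 5 called without one were Ifit2, Ifi44, Irf7, Phf11d and Xaf1, and of these Xaf1 is the one whose upstream bases are printed above. No match says only that these letters are not in the window.

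Several members sit side by side, and some share sequence at the 3′ end where the reads fall. In GRCm38 the Ifit genes lie on chromosome 19, from Ifit2 (chr19:34550694-34576419) past Ifit3 (chr19:34583531-34588731) to Ifit1 (chr19:34640871-34650009), all protein-coding on the plus strand except Ifit1bl1. The Oas1, Oas2 and Oas3 genes lie on chromosome 5, with Oas1a at chr5:120896256-120907521 and Oas3 at chr5:120753098-120777661, and the Phf11 genes on chromosome 14, with Phf11b at chr14:59320964-59341351 and Phf11d at chr14:59347407-59365470. Of the 50-base words in the last 500 transcript bases, Oas1a shared 56.1% with Oas1g, Phf11b 42.6% with Phf11c, Phf11a 31.3% with Phf11d and Ifit3 14.9% with Ifit3b. Oas1g shared 30.2% with Oas1a and Ifit1bl1 9.09% with Ifit1bl2. Counts of these genes are therefore uncertain, as reads could be lost or assigned to the copy. Irf9 overlaps Rnf31 on the same strand. Irf7 (chr7:141262706-141266481), Bst2 (chr8:71534255-71537456) and Mx1 (chr16:97447035-97462907), all on the minus strand, shared no such word with another gene.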

How the data were processed

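The 4 libraries of droplet 3′ single-cell RNA were grouped by their titles. The deposited matrices are UMI counts of genes in barcodes. The submitters' processing notes name Cell Ranger 3.1.0 and mm10, and the annotation release is not given in the sources used here. A barcode was kept if it had 200 genes or more, 500 UMIs or more and no more than 10% of UMIs from mitochondria. Scrublet's own threshold marked 0.202% of cells, so the highest-scoring cells at the rate expected from loading were removed as doublets (3.79% of barcodes). Cells were clustered with scanpy 1.11.5 (2000 variable genes, 30 components, Leiden resolution 1 with igraph 0.11.9), giving 28 clusters and 14 sub-clusters of T and NK cells, which were named from marker lists with naming thresholds worked out with the clusters in view.

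Counts were summed per library and class and tested with edgeR 4.0.16 (quasi-likelihood, robust, TMM, filterByExpr, R 4.3.3), with Benjamini-Hochberg adjustment over all genes tested and a threshold of 0.05. Class differences were tested as a class by treatment interaction with library terms. The fits were first tested on simulated data. The score uses the 37 genes found, and log2 values are on a pseudocount of 1. Alternatives were DESeq2 1.42.0, other filters, clusterings and scaling, and leaving out each library. The members, gene lists and marker lists were chosen with earlier results of these data known. Every member is accounted for: values in each library are printed for members past the threshold in a class and for branch members on which a result turns. No test was made on the list as a whole. Gene positions are from GENCODE on GRCm38, matched by Ensembl identifier, and promoters from RefSeq on GRCm38.p6. The result of 1 gene of the pathway lists is not reported here.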

Additional observations from a re-analysis of the deposited data

Results flagged for a closer look

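Rsad2 and Ifit2 responded differently in mononuclear phagocytes and neutrophils, by the test of the difference itself. For Rsad2 the AT38 effect was 0.92 higher in phagocytes on the log2 scale (adjusted p = 5.08e-04, edgeR), with 98.9 and 64.7 CPM against 112 and 142 in phagocytes and 355 and 270 against 223 and 348 in neutrophils. For Ifit2 it was 1.24 higher (adjusted p = 0.0499, edgeR), with a range of 0.73 to 1.85 when each library was left out in turn. Within a library the 5 richest phagocytes held 22.5% to 49.1% of the Rsad2 UMIs and 27.3% to 64.1% of the Ifit2 UMIs. The Siglecf-led cluster, in which the members were low, made up a larger share of AT38 than of vehicle neutrophils, and its part in these differences was not tested.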

How the results depend on the processing

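The count of members called in mononuclear phagocytes, 14 as reported, was 5 with DESeq2, 26 without the low-count filter, 7 with the members left out of clustering, 0 with macrophage-like clusters alone and 0 to 19 with each library left out. In neutrophils, 3 as reported, it was 6 without TMM factors, 1 to 7 with each library left out, and 9 or 0 with the Siglecf cluster left out or alone, a pair of alternatives chosen after seeing the data. In dendritic cells it was 1 with DESeq2, 6 without the filter and 0 to 6 with each library left out. In B cells it was 1 without the filter, 2 with the members left out of clustering, 1 without doublet removal and 0 to 3 with each library left out. In T cells it was 1 without the filter, 1 in CD4-like sub-clusters alone and 0 to 1 with each library left out. The difference from neutrophils, 2 members as reported, was 1 with DESeq2, 4 at a mitochondrial maximum of 20%, 1 with the members left out of clustering and 1 to 6 with each library left out. The difference from dendritic cells was 1 without the filter and 0 to 3 with each library left out, and that from T cells 4 and 0 to 7. The score difference in phagocytes was 0.60 at a pseudocount of 5 and 0.68 with the members left out of clustering. The causes were not tested. No called direction reversed. Library numbers are shared by the groups but nothing ties same-numbered pools together, and their deviations correlated at 0.11 in phagocytes, -0.14 in neutrophils, 0.16 in dendritic cells, 0.28 in B cells, 0.018 in T cells and -0.0078 in NK cells. A fit with the replicate number as a block called 22 members in phagocytes, 1 in neutrophils and 3 in B cells. With 2 pools per group a lone library is assumed to vary like the others when its partner is left out.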
